A study of Caenorhabditis elegans with 2 samples.

Results

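The genes described here had fewer intron reads per exon read at 25 °C than at 16 °C in embryos of a gad-1 mutant strain of Caenorhabditis elegans. They were chosen from a table of exon and intron read counts per gene. For each gene, intron reads were divided by exon reads in each library after adding 0.5 reads to each count, and the quotient of the 25 °C over the 16 °C value is called the ratio below. A gene was taken where it had at least 30 intron reads over both libraries, where the ratio was at most 0.6, and where its exon reads, scaled by library total, differed by no more than 4-fold. These limits left 94 of the 19487 genes in the table. The ratio, the intron reads and the exon reads of these genes were therefore used to choose them, and they are given as a description with no test.

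Both libraries came from mixed-stage embryos of strain BW1943, which carries gad-1(ct226) and the linked body-shape marker dpy-11(e224) on chromosome V. Embryos were obtained by bleaching from cultures at 16 °C or 25 °C, and 1 stranded mRNA library was made per temperature, so no value below has a replicate error. Both temperatures share both mutations, and an effect of temperature and an effect of the mutation at that temperature cannot be told apart. Summed over genes there were 22016818 reads at 16 °C and 18175617 at 25 °C, with 1.43% and 2.47% of them in introns. gad-1 itself stayed under the intron read minimum, with 11 and 18 intron reads (16 °C and 25 °C, as in all pairs of counts below) and 3123 and 2748 exon reads. The ct226 allele is present in both libraries, so these counts do not check the labels. Among the fixed lists of marker genes, 34 of 35 maternal germline genes, 17 of 19 epidermis genes and 24 of 24 body wall muscle genes had at least 10 exon reads in both libraries. In whole embryos, fewer cells of a type and less RNA per cell cannot be told apart.

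Introns are removed from pre-mRNA by the spliceosome, which the Prp19 complex (NTC) joins as it becomes active. Intron reads in a poly(A)-selected library can come from unspliced or partly spliced transcripts, from an annotated intron that is an exon of an unannotated isoform, or from another transcript that runs through the intron. The ratio therefore compares how much intron sequence accompanies a gene's exon sequence in each library. The series title links GAD-1 with pre-mRNA splicing and transcription elongation, and the question behind the table is where intron reads accumulated at the higher temperature. The genes below are those that went the other way.

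A lower ratio was uncommon. Of the 5479 genes with the same read minimum and exon limit, the 94 make up 1.72%, whereas 3418 genes, or 62.4%, had a ratio at least as far in the other direction. Their ratios ran from 0.136 to 0.595 with a median of 0.464 (log2 -1.11), while the median over the 5479 genes was 1.98 (log2 0.98). The 5479 genes include the 94 in every comparison given here.

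In most of these genes the intron reads themselves were lower. With 0.5 reads added to each count, library-scaled intron reads were lower at 25 °C in 87 of 94 genes, against 15.9% of the 5479, and at least 2-fold lower in 55, against 3.29%. On the same scale exon reads were higher at 25 °C in 44 of 94, against 49.4%. From the counts with nothing added, intron reads were lower in 88 and exon reads higher in 43. The difference comes from Y48A6C.8, which had no exon read in either library, and srh-34, whose scaled intron reads were nearly equal. By these counts, intron reads were lower while exon reads were higher in 37 genes, both were lower in 50, and both were higher, exon reads by more, in 6. Exon reads were at least 2-fold higher in 12 genes, against 2.94%, and at least 2-fold lower in 14, against 8.18%. As the limits used these counts, nothing is read from the difference to the background. The size of the log2 intron change exceeded that of the exon change in 74 genes (78.7%), beside 78.3% of the 5479. The median log2 change of the 94 genes was -1.21 for intron reads and -0.11 for exon reads, beside 0.96 and -0.01 over the 5479. Scaling by the median exon ratio instead of the library total raised all log2 changes by 0.27, after which, with 0.5 reads added, intron reads were lower in 80 and exon reads higher in 55 of the 94. The median exon change of the 94 genes was then 0.16, so its sign depends on the scaling.

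**Figure D1:**
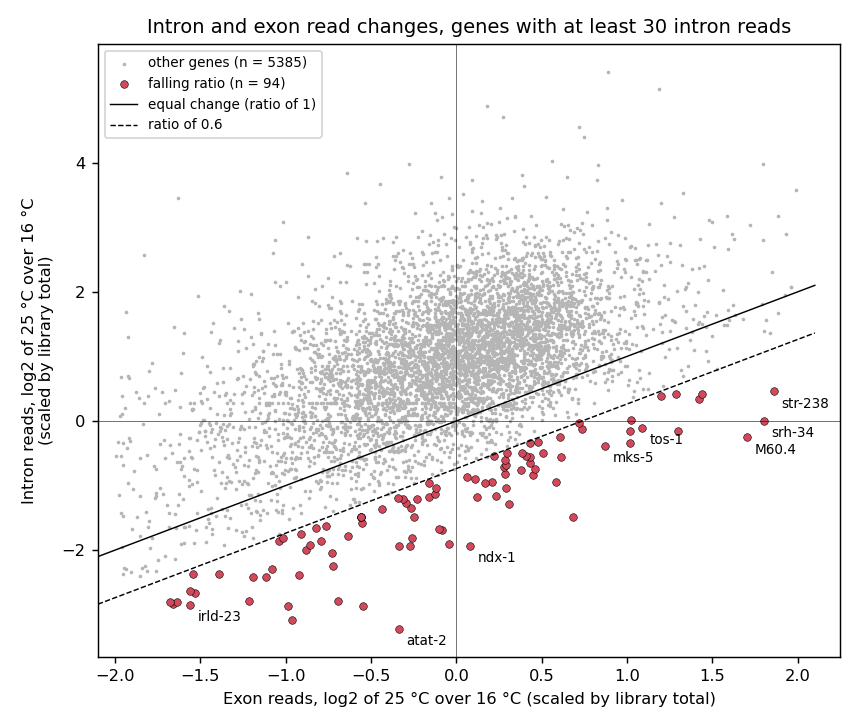
Each point is a gene with at least 30 intron reads and an exon change within 4-fold, placed by its log2 change of library-scaled exon reads (x axis) and intron reads (y axis), 25 °C over 16 °C with 0.5 reads added. The 94 genes with a ratio of at most 0.6 (red) lie under the dashed line by the limit itself, and most of them also lie under the horizontal line at 0, while the other genes (grey) centre above it.

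Before scaling, the intron reads of the 94 genes summed to 6143 and 1971, and their exon reads to 127784 and 141396. A single gene, irld-23, gave 30.1% of the intron reads at 16 °C and 10.8% at 25 °C. Scaled by library total, the summed intron reads were 2.57-fold lower at 25 °C, or 2.01-fold lower without irld-23 (4292 and 1759 reads). The summed exon reads were 1.34-fold higher, and 1.06-fold higher without tos-1, the gene with the most exon reads.

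The lowest ratio was that of atat-2, which encodes an alpha-tubulin acetyltransferase (X, 5849100 to 5851971, plus strand, WBcel235). It had 39 and 3 intron reads, with 328 and 214 exon reads. Intron reads were thus lower by far more than exon reads, whose scaled log2 change was -0.34. From the counts alone, the intron-to-exon ratio was 8.48-fold lower, with an exact 95% interval of 2.64 to 43.3. Such intervals cover counting error only, since PCR copies of a molecule are counted as separate reads. The gene overlaps hog-1 on the opposite strand, whose exon reads were 479 and 76.

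F26E4.2 (I, 9757854 to 9760787, minus strand) came next, with 66 and 7 intron reads against 489 and 276 exon reads. Its ratio was 5.32-fold lower (2.39 to 13.9), and it overlaps sur-6 on the opposite strand. Y75B8A.13 (III, 12203756 to 12215696) had 25 and 7 intron reads while its exon reads went from 1771 to 2351. F31D4.5 (V, 20854071 to 20858730) had 56 and 5 intron reads, with 3808 and 1613 exon reads. In the former the exon change and the intron change point in opposite directions, and in the latter both were lower. sfxn-5, a sideroflexin-type mitochondrial carrier, had 37 and 4 intron reads with 474 and 242 exon reads.

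Among genes that overlap no other annotated gene, ndx-1, a Nudix hydrolase, had the lowest ratio. Its 8 introns (I, 12679207 to 12681812) held 25 reads at 16 °C and 5 at 25 °C, and its exon reads were 911 and 796, for a 4.37-fold lower ratio (1.63 to 14.7). drh-1, a RIG-I-like helicase that acts in antiviral RNA interference, had 38 and 8 intron reads over 19 introns, with 1095 and 879 exon reads. After scaling its exon level was nearly equal (0.972 of the 16 °C value, 0.889 to 1.06), so its 3.81-fold lower ratio (1.74 to 9.51) came almost wholly from intron reads. srh-34 and C30A5.16, also without an overlap, are described below with the genes that had few exon reads. C27A7.5 had 25 and 6 intron reads with 408 and 317 exon reads.

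ubc-1, the worm counterpart of the ubiquitin-conjugating enzyme Rad6, had 48 and 12 intron reads against 1657 and 1274 exon reads, in 2 introns of which the longer spans 913 bases. pinn-4, a parvulin-type prolyl isomerase with 1 intron of 1193 bases, had 27 and 6 intron reads with 911 and 628 exon reads. rom-2, a rhomboid-family gene, had 31 and 5 intron reads with 194 and 97 exon reads. Their ratios from the counts were 3.08-fold (1.60 to 6.39), 3.10-fold (1.24 to 9.24) and 3.10-fold lower (1.14 to 10.5). In all 3 genes intron reads were lower by more than exon reads, which were also lower after scaling by library total.

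The other genes among the 15 lowest ratios were M60.4, T03F6.3, obr-2, an oxysterol-binding-protein relative, and mca-2, a plasma membrane calcium pump. M60.4 had 19 and 13 intron reads with 1995 and 5362 exon reads, so its exon level was 3.26-fold higher after scaling (3.09 to 3.43). Its introns were counted over 107 bases, while the current annotation gives 3382, so its gene model differs between them. T03F6.3 had 48 and 5 intron reads and 2932 and 1220 exon reads. obr-2 had 25 and 5 intron reads with 1150 and 752 exon reads. mca-2 had 60 and 20 intron reads with 2476 and 2533 exon reads, and its ratio was 3.07-fold lower (1.82 to 5.39).

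**Figure D2:**
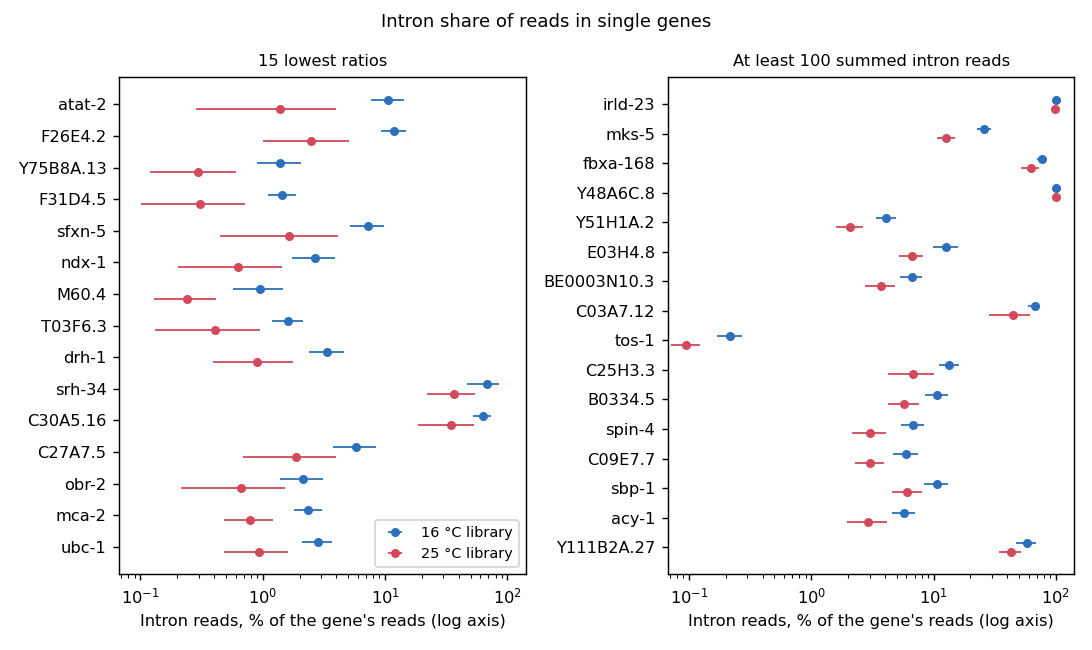
Points give intron reads as a percentage of all reads of a gene (log axis) at 16 °C (blue) and 25 °C (red), with exact 95% binomial intervals, for the 15 lowest ratios (left) and for the 16 genes with at least 100 intron reads (right). In atat-2 the share is 10.6% at 16 °C and 1.38% at 25 °C, in mks-5 25.9% and 12.7%, and in tos-1 0.218% and 0.0952%, while irld-23 and Y48A6C.8 stay near or at 100%.

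The values rest on unequal numbers of reads. The 94 genes had a median of 36.5 intron reads at 16 °C and 12 at 25 °C, and 35 genes had fewer than 10 at 25 °C. The exact 95% interval of the ratio lay wholly under 1 in 62 genes and reached 1 or more in 30, while 2 genes without exon reads in a library had no interval. Such an interval under 1 was found in 1.42% of the 5476 genes that allow one, and since the rule selects low ratios nothing is read from the contrast. The interval lay wholly under 0.6 in 8 genes, which were atat-2, F26E4.2, Y75B8A.13, F31D4.5, M60.4, drh-1, mca-2 and mks-5. This group of 8 was named after its values were seen. M60.4 and Y75B8A.13 were counted over fewer intron bases than the current annotation gives (107 against 3382, and 3617 against 7526).

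The share of genes inside the limits was higher where few intron reads were counted. It was 3.94% (34 of 862, exact 95% interval 2.75 to 5.47) in genes with 30 to 39 intron reads and 1.56% (11 of 706) in those with 40 to 49. It was 1.73% (33 of 1908) with 50 to 99 reads, 1.02% (13 of 1270) from 100 up to 200, and 0.409% (3 of 733, interval 0.0845 to 1.19) with 200 or more. By exon level the share went from 3.43% in the lowest quartile to 0.365% in the highest. Low counts scatter more, and how many of the 94 genes this placed inside the limits was not tested.

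**Figure D3:**
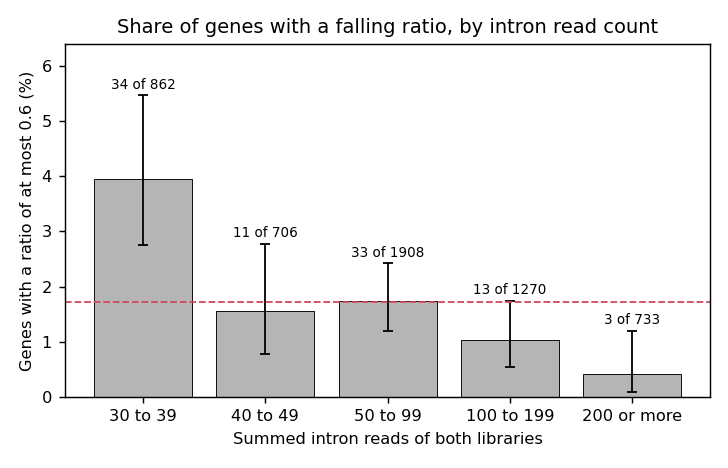
Bars give the percentage of genes with a ratio of at most 0.6 in classes of summed intron reads (both libraries), with exact 95% binomial intervals over genes and the counts above each bar. The share is 3.94% with 30 to 39 reads and 0.409% with 200 or more, and the dashed line marks the 1.72% over all 5479 genes.

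Of the 16 genes with at least 100 intron reads, 13 had fewer library-scaled intron reads at 25 °C and 10 had more exon reads, by the counts with nothing added. Y48A6C.8, with no exon read, is also among the 16. mks-5 is the best measured among them. It encodes a transition-zone protein at the base of cilia, the counterpart of RPGRIP1L (II, 10720231 to 10729329, plus strand, 16 introns). Its exon reads were 539 and 815, and its intron reads, 188 at 16 °C, made up 25.9% of its reads there and 12.7% at 25 °C. After scaling, intron reads were lower (log2 -0.38) although exon reads were higher (0.87), and the ratio was 2.39-fold lower (1.84 to 3.11). In the authors' deposited table, genes lower past an adjusted p of 0.01 numbered 3, and mks-5 is the only one of these within the exon limit used here (deposited fold 0.419, adjusted p = 2.03e-07). The other genes lower past this threshold, aagr-2 and T10C6.7, had exon changes beyond 4-fold. The deposited p-values rest on the same single library per temperature as the limits used here. They therefore carry no replicate error and are no separate support for mks-5. Genes past the threshold numbered 1085 in all. An exon of C09G5.14, on the opposite strand, covers 7.62% of the intron bases of mks-5.

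tos-1 had the most exon reads of the 94 genes. Its name stands for target of splicing, and its alternative splicing is used in C. elegans as a reporter of splicing factors. It had 73 and 56 intron reads, with 33486 and 58763 exon reads. The scaled exon level was 2.13-fold higher (2.097 to 2.154) and the scaled intron level differed little (1.08-fold lower), so the 2.29-fold lower ratio (1.59 to 3.30) followed the exon reads. The table lists 108 intron and 5470 exon bases, the latter more than the 5345 bases the gene spans in the current annotation (V, 9338859 to 9344203), so its model in the table differs. In RPKM (reads per kilobase, scaled to the library total), its exon level was 278 at 16 °C and 591 at 25 °C, and its intron level 30.7 and 28.5.

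Several of the other well-covered genes also combined more exon with fewer intron reads. sbp-1, the SREBP transcription factor of fat synthesis, had 71 and 49 intron reads with 600 and 756 exon reads. spin-4, a spinster-type membrane transporter, had 82 and 40 intron reads with 1128 and 1280 exon reads. Y51H1A.2, named cup-14 in the current gene names, had 110 and 64 intron reads with 2559 and 3009 exon reads. The ratio was lower by 1.83-fold (1.23 to 2.73), 2.33-fold (1.56 to 3.51) and 2.02-fold (1.46 to 2.81). BE0003N10.3 and B0334.5 followed the same pattern, with 86 and 50 and with 80 and 45 intron reads. acy-1, an adenylyl cyclase, had 80 and 29 intron reads with 1313 and 969 exon reads, so here exon reads were lower as well. E03H4.8 differed from these, since its intron reads were nearly equal before scaling (67 and 74) while exon reads went from 466 to 1045. Behind tos-1, F42C5.9 (4375 and 3902), C05C8.7 (3672 and 2551) and F21F3.6 (3154 and 3199) were among the genes with the most exon reads, and they had 21 and 9, 25 and 7, and 45 and 26 intron reads.

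By known role, 38 of the 47 genes with a symbol in the deposited table were placed in 7 groups, which were drawn up after the genes were known. For comparison with each group below, intron reads were lower in 87 of all 94 genes, against 15.9% of the 5479. Exon reads were higher in 44 of the 94, against 49.4%. Whether any group differs from the 94 genes was not tested. Signs in the groups refer to scaling by library total. Negative log2 changes smaller in size than 0.27 turn positive under scaling by the median exon ratio. The largest holds 11 genes of signalling and ion transport. Intron reads were lower in all 11, exon reads were higher in 2, and the median log2 change was -1.49 for intron and -0.56 for exon reads. let-23, the epidermal growth factor receptor of the worm, had 34 and 4 intron reads with 446 and 127 exon reads. itr-1, the inositol trisphosphate receptor that releases calcium from the endoplasmic reticulum, had 26 and 6 intron reads with 1279 and 561 exon reads. In both, exon and intron reads were lower together, and the intervals of the fold decrease of the ratio reached under 1 (0.839 to 9.55 and 0.759 to 5.68).

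unc-43, the calcium- and calmodulin-dependent kinase CaMKII, had 25 and 7 intron reads with 4076 and 2289 exon reads. unc-49, which encodes GABA receptor subunits, had 26 and 9 with 742 and 494, and lgc-1, a ligand-gated channel subunit, had 73 and 8 with 181 and 47. lgc-1 overlaps nhr-57 on the same strand, whose exon reads were also lower (2350 and 496). kcc-1, a potassium-chloride cotransporter, had 44 and 14 intron reads with 2604 and 1791 exon reads. sma-5, a MAP kinase that affects body size, had 60 and 12 with 1575 and 707. smp-2, a semaphorin guidance signal, had 28 and 6 with 1011 and 406. Besides mca-2, the bestrophin-type channel gene best-14 was the member with higher exon reads (1767 and 2030), with 23 and 15 intron reads.

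Of the metabolic and redox enzymes, 5 of 6 had more scaled exon reads at 25 °C, and all 6 had fewer intron reads. hpd-1, which acts in tyrosine breakdown, had 30 and 22 intron reads with 1581 and 2640 exon reads, a 2.28-fold lower ratio (1.27 to 4.16). acs-16, a fatty acyl-CoA synthetase family gene, had 19 and 14 intron reads with 192 and 390 exon reads. hex-3, a hexosaminidase, had 29 and 16 with 2027 and 2256. In these 3 genes the exon level was higher by 1.35-fold to 2.46-fold. The glutathione peroxidase genes differed from each other, since gpx-4 had more scaled exon reads (58 and 80) and gpx-1 fewer (832 and 221), with 20 and 15 and with 29 and 3 intron reads. For gpx-1 the 3 reads at 25 °C leave an interval of the fold decrease from 0.784 to 13.3.

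The 7 genes of protein turnover, folding and trafficking all had lower values of both kinds at 25 °C after scaling by library total. Their median log2 change was -1.58 for intron and -0.26 for exon reads. Scaling by the median exon ratio, which adds 0.27, turns the exon change positive in ubc-1, uri-1, lmtr-5 and pinn-4. By library total these changes were -0.10, -0.12, -0.23 and -0.26. Besides ubc-1, pinn-4 and rom-2 they were ubh-1, cogc-6, lmtr-5 and uri-1. ubh-1, a ubiquitin carboxyl-terminal hydrolase, had 34 and 9 intron reads with 481 and 271 exon reads. cogc-6, a subunit of the conserved oligomeric Golgi complex, had 25 and 7 with 1380 and 772. lmtr-5, a subunit of the lysosomal Ragulator complex, had 29 and 10 with 834 and 586. uri-1, a prefoldin-like protein, had 43 and 17 intron reads, but exons of mdt-18 on the opposite strand cover 74.7% of its intron bases.

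Among the 5 transcription regulators, all had fewer intron reads and 3 had more exon reads. The proneural genes cnd-1, a NeuroD-type factor, and hlh-14, an Achaete-Scute-type factor, are known for their roles in the embryonic nervous system. cnd-1 had 43 and 10 intron reads with 576 and 306 exon reads, and hlh-14 had 41 and 22 with 776 and 780. After scaling, the exon level was lower in cnd-1 (log2 -0.63) and higher in hlh-14 (0.28). nhr-45, a nuclear hormone receptor, had 27 and 6 intron reads with 1148 and 468 exon reads. sor-1, which helps to keep Hox genes silent, had 38 and 16 with 2737 and 2610.

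The remaining groups hold 3 genes each. gmn-1, geminin, an inhibitor of replication licensing, had 20 and 10 intron reads with 1772 and 1788 exon reads. cdc-25.3, a phosphatase of the CDC25 family, had 28 and 6 with 1267 and 604. cosa-1, which marks meiotic crossovers, had 31 and 25 with 80 and 109, and its ratio of 0.595 is the highest of the 94. All 3 overlap another gene, and the intervals of their folds reach under 1. mlc-7, a myosin light chain gene grouped with atat-2 and mks-5, had 27 and 14 intron reads with 69 and 77 exon reads.

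**Figure D4:**
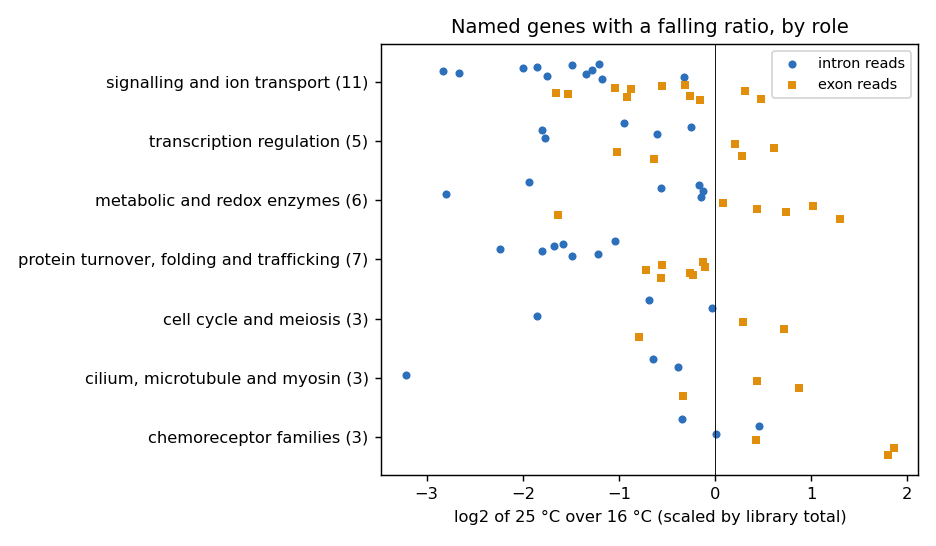
Points give the log2 change, 25 °C over 16 °C, of library-scaled intron reads (blue circles) and exon reads (orange squares) of 38 named genes in 7 role groups, with the number of genes in brackets. Intron reads lie under 0 in every gene of the 6 upper groups. Exon reads lie on both sides of 0 except in the protein turnover and chemoreceptor groups. All 7 are lower in the former by library total, and all 3 are higher in the latter. Scaling by the median exon ratio turns the exon change positive in ubc-1, uri-1, lmtr-5 and pinn-4. The exon point of str-238 (0 and 1 exon reads) rests on the added 0.5 reads. The interval of the str-267 exon fold includes 1 (0.966 to 1.88).

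Of the 9 named genes outside these groups, sfxn-5, drh-1, obr-2, spin-4 and tos-1 are described above and irld-23 and fbxa-168 below. odr-2, a membrane-linked protein needed for olfaction, had 74 and 12 intron reads with 185 and 72 exon reads, and its ratio was 2.40-fold lower (1.20 to 5.14). ptr-10, a patched-related gene known as a glial marker, had 36 and 16 with 726 and 627. The 47 genes without a symbol in the deposited table had ratios from 0.1997 to 0.587 with a median of 0.468. From the counts, intron reads were lower in 42 of these and exon reads higher in 23. Current gene names give a symbol to 3 of the 47, which are Y51H1A.2 (cup-14), BE0003N10.3 (fbxo-11.2) and T23E7.5 (tmem-218).

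In some genes the intron reads outnumbered the exon reads per base. Intron reads per kilobase exceeded exon reads per kilobase at 16 °C in 6 of the 94 genes (6.38%, exact 95% interval 2.38 to 13.4), and in 1.62% of the 5479. They were srh-34, str-238, T16G1.18, irld-23, fbxa-168 and Y48A6C.8, and at 25 °C str-238, irld-23 and Y48A6C.8 remained above. irld-23, of a family with receptor L domains, had 1851 and 212 intron reads but 12 and 3 exon reads. In RPKM its intron level was 15.6 at 16 °C and 2.16 at 25 °C, against an exon level of 0.371 and 0.112. Intron reads were 7.21-fold lower after scaling, yet the interval of its fold decrease of the ratio (0.392 to 8.17) was wide because exon reads were few. The table gives irld-23 5405 intron bases, while the current annotation (X, 17076061 to 17080685) gives 2953, so its gene model differs between them. The models of fbxa-168 and Y48A6C.8 differ as well. fbxa-168 was counted over 2014 intron bases, of which the current annotation gives 150. Y48A6C.8 was given 2527 exon bases, while it now spans 731.

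In genes without exon reads in a library, the ratio rested on the added 0.5 reads. str-238, a chemoreceptor-type gene (V, 765032 to 772585), had 37 and 42 intron reads with 0 and 1 exon reads, so intron reads were not fewer and no fold can be given. Y48A6C.8 had 118 and 59 intron reads and no exon read in either library. srh-34, another chemoreceptor-type gene, had 17 and 14 intron reads with 8 and 24 exon reads, and its scaled log2 intron change was 0.01. str-267, also of a chemoreceptor family, had 34 and 22 with 71 and 79. T16G1.18 had 59 and 27 intron reads with 15 and 17 exon reads, fbxa-168 149 and 56 with 45 and 34, and C30A5.16 53 and 11 with 31 and 21. C03A7.12, which is not in the reference annotation, had 113 and 17 with 56 and 21. In all, 10 of the 94 genes had under 100 exon reads over both libraries, against 1.88% of the 5479.

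Intron reads were a larger part of these genes' reads at 16 °C than of other genes' reads. The median intron share was 5.43% at 16 °C (quartiles 2.31 and 13.7) and 2.35% at 25 °C (0.936 and 7.55). Over the 5479 genes it was 1.84% and 3.67%. As lower exon counts and the limits both enter this share, it is a description of the selected genes. In RPKM the median exon level was 20.3 and 16.09, against 39.9 and 40.4 over the 5479. The median intron level was 1.32 and 0.473, against 1.24 and 2.35.

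The limits were set on reads, not on gene structure. The 94 genes had a median summed intron length of 1527 bases (quartiles 711 and 2892), and the 5479 had 1188 (457 and 2694). Introns were counted in the reference annotation as the gaps left after merging the exons of all transcripts of a gene. The median number counted so was 5 (quartiles 3 and 9) in the 93 genes found there and 6 (4 and 9) in 5462 such genes. A single gap was present in 11 of 93, or 11.8% (exact 95% interval 6.05 to 20.2), beside 3.84% of the 5462. Examples are pinn-4, tos-1, gmn-1, C30A5.16 and T16G1.18. A gene with 1 gap, such as tos-1 with 108 intron bases over a span of 5345, may have more introns in single transcripts. At the other end, 20 of 93 had 10 or more introns (21.5%, beside 21.2%), with the most, 37, in itr-1. The longest intron exceeded 1000 bases in 38.7%, beside 34.7%.

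The genes lay on all 6 chromosomes, with 16 on I, 12 on II, 23 on III, 13 on IV, 20 on V and 9 on X. Chromosome V held 21.5% of them (interval 13.7 to 31.2) beside 13.3% of the 5462 genes, and X held 9.68% (4.52 to 17.6) beside 13.9%. Some neighbours appeared together. C09E7.7 and C09E7.8 lie 2383 bases apart on the minus strand of III with no protein-coding gene between them. They had 66 and 55 and 39 and 42 intron reads, and exon reads were higher in both (1047 and 1758, and 519 and 983, with scaled log2 changes of 1.02 and 1.20). unc-49 and hpd-1 lie 2820 bases apart on the plus strand of III, but there exon reads were lower in the former and higher in the latter. Y75B8A.13 and gmn-1 lie 8199 bases apart on the minus strand of III with 1 protein-coding gene between them.

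Overlap with neighbouring genes limits how far intron reads can be assigned. Of the 93 genes in the annotation, 47 overlapped another gene (50.5%, exact 95% interval 39.97 to 61.07), beside 43.5% of the 5462. A protein-coding gene overlapped 32 of them (34.4%, beside 31.4%), a gene on the opposite strand 39 (41.9%, beside 35.6%), and a gene on the same strand 18 (19.4%, beside 15.7%). Genes annotated as ncRNA overlapped 12 (12.90%, beside 12.96%), and piRNA genes 5 (5.38%, interval 1.769 to 12.102, beside 2.91%). In 23 genes (24.7%, beside 20.0%) at least 1 intron base lay in an exon of another gene. Over 10% of the intron bases did so in 6 genes (6.45%, beside 6.74%), which were obr-2, C27D8.3, F42C5.9, B0334.5, F18A11.3 and uri-1. The background shares lie inside the exact 95% intervals for the 93 genes for each of these kinds of overlap.

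Genes with and without an overlap, all chosen by a low ratio, had close median ratios. As the choice confines both medians, their closeness does not show whether an overlap affected the ratios. The median was 0.452 in the 46 genes without one, beside 0.477 in the 47 with one, and intron reads were lower in 40 and in 46. Of the 62 genes whose interval lay wholly under 1, 32 overlapped no gene, beside 46 of all 93 annotated genes. The 62 include C03A7.12, which is not in the annotation and has no known overlap. Whether the authors' counting used strand is not given in the sources used here, so reads of an opposite-strand neighbour may be among the counts.

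**Figure D5:**
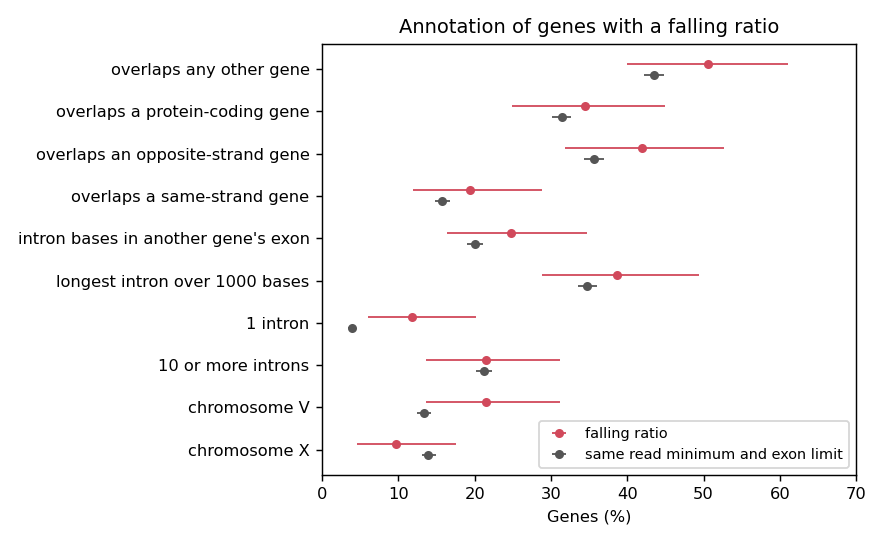
Points give the percentage of genes with each annotated property, with exact 95% binomial intervals over genes, for the 93 annotated genes with a falling ratio (red) and the 5462 annotated genes with the same read minimum and exon limit (grey). The intervals overlap for every kind of overlap and for chromosome V (21.5% and 13.3%). For chromosome V the background share itself lies just under the interval of the 93 genes (13.7 to 31.2), which was not tested. Those for genes with 1 intron, counted as gaps between merged exons, do not (11.8% and 3.84%).

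Exon reads of the overlapping neighbours were not used to choose the genes. Of the neighbours with at least 10 exon reads in a library, 24 of 31 had fewer scaled exon reads at 25 °C (77.4%, exact 95% interval 58.9 to 90.4), beside 64.3% of the 1567 neighbours of the 5479 genes. They were at least 2-fold lower in 12 of 31 (38.7%), beside 27.8%. The median log2 change was -0.77 (quartiles -2.11 and -0.05) beside -0.32 (-1.15 and 0.20). The background share of lower neighbours lies inside the interval. Among single cases, hog-1 beside atat-2 had 479 and 76 exon reads and M03B6.3 beside M03B6.4 had 3128 and 150. In contrast sur-6 beside F26E4.2 had 6710 and 6742, and drsh-1 beside gpx-1 had 1433 and 1178. Whether reads of neighbours enter the intron counts was not tested.

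The 13 gene lists of known function held 183 genes with the same read minimum and exon limit, of which 8 had a falling ratio (4.37%, exact 95% interval 1.91 to 8.43, beside 1.72% of the 5479). The lists were drawn up with earlier results of these data known, and most are too short for a count of 0 to be read. None of 38 splicing genes and none of 13 heat-shock genes were among the 8, and none of 5 neuron, 16 body wall muscle, 13 epidermis, 2 intestine and 11 maternal germline markers. No pharynx marker met the minimum. The 8 included mks-5 of 8 ciliated-neuron genes, ptr-10 of 2 glial genes, smp-2 of 29 axon guidance genes, and cnd-1 and hlh-14 of 35 developmental transcription factors. Of 11 genes in the ion channel and transmitter receptor list, 3 were among them (itr-1, unc-43 and unc-49), beside 1.72% over all 5479 genes. Of these, unc-43 encodes a kinase and is neither a channel nor a receptor. The exact interval of the ratio reached 1 in each of the 3. The median log2 ratio of these 11 was 0.01, with 5 under 0, while the splicing list had a median of 1.15 with 0 of 38 under 0, and all 5479 genes had a median of 0.98 with 10.5% under 0.

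The limits cut through a continuous range of values. Just inside the ratio limit lay cosa-1 (0.595), str-267 (0.587) and Y39A1A.17 (0.587), and just outside lay C06C3.4 (0.601), K01G5.10 (0.601) and R74.6 (0.602). At the read minimum, ndx-1, obr-2 and F42C5.9 had 30 intron reads, and F53A3.1, W01A8.2 and cal-5 had 29. At the exon limit, str-238, srh-34 and M60.4 had log2 exon changes of 1.86, 1.80 and 1.70, and fbxb-64, strm-1 and F36A2.3 lay outside at 2.01, -2.05 and -2.05. Genes on either side of the ratio and read limits thus had nearly the same values, while the exon changes inside the limit lay further from it.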

How the data were processed

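Embryo RNA of strain BW1943 was sequenced as 1 mRNA library at 16 °C and 1 at 25 °C. Trimmomatic, TopHat2 and HTSeq were used, per the submitters' processing notes. Not given in the sources used here are their versions, the genome build, the annotation and the strand setting. The authors deposited raw exon and intron read counts per gene, summed exon and intron lengths, a fold change that is the ratio of both libraries' intron-to-exon ratios, and p-values with an adjusted value equal to p times the number of genes, capped at 1. Columns were matched to temperatures by the marks Con and Exp in the labels. Counts were scaled by each library's total of exon and intron reads. Intervals are exact at 95% (conditional odds ratio or Clopper-Pearson, SciPy 1.17.1) and cover counting error, or genes taken as independent. No test was run, since there is 1 library per temperature and the counts chose the genes.

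Gene positions, introns and overlaps of at least 1 base were taken from the WBcel235 annotation of Ensembl release 115, in which 19298 gene identifiers matched and 189 did not. Introns there are the gaps between the merged exons of all transcripts of a gene. Summed intron lengths equalled the reference in 65.9% of matched genes, so introns may differ from those the authors counted. Symbols turned into dates were replaced from the reference names. The members and the 13 gene lists (366 symbols, 356 in the table) were chosen with earlier results of these data known. Genes named were the 15 lowest ratios, the 8 lowest without an overlap, the 6 with most intron and most exon reads, list and role-group members, families and genes at the limits. Further genes were named after their values were seen. The calculation of the ratio and the limits was tested on simulated counts. The alternatives were a pseudocount of 1 read, other limits, another scaling and genes without overlap. No sequence is shown, since the reference used here held annotation and names alone.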

Additional observations from a re-analysis of the deposited data

How the results depend on the processing

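Of 40 alternative values, 29 stayed within the range set for them (1.5 times the count, or the 95% interval of the share or median). The median exon change of overlapping neighbours stayed under 0 under each alternative that gave it. The share of genes with more exon reads, 46.8% as reported, went above 50% with no read minimum, with at least 100 reads and under scaling by the median exon ratio (54.1%). With no minimum on intron reads, 1408 genes met the other limits, of which 71.1% had fewer intron reads, 57.5% more exon reads and 34.7% an overlap with another gene, and their median intron length was 611 bases. With at least 100 intron reads, 16 genes were left, with 81.3% lower in intron reads, 68.8% higher in exon reads and a median intron length of 2107 bases. A ratio of at most 0.5 left 61 genes, and leaving out genes that overlap another gene left 46. These settings remove or add genes by construction. A pseudocount of 1 read gave 93 genes, 92 of them shared with the 94, and scaling by the median exon ratio gave 98, with 92 shared. No paired analysis was possible because each temperature has a single library, so leaving out a library was not possible either. Depth limits most single values, since the median gene had 12 intron reads at 25 °C.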

Other observations

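A further 36 genes met the ratio limit and the read minimum but had exon changes beyond 4-fold, 26 of them lower and 10 higher at 25 °C. Intron reads scaled by library total were lower in 27 of the 36, and 9 had no intron read at 25 °C. pha-4, the FoxA factor that specifies the pharynx, had 107 and 4 intron reads with 3549 and 486 exon reads, so intron reads were lower by more than the exon reads. T05H10.3 had 91 and 2 intron reads with 8111 and 1081 exon reads, and F36A2.3 had 322 and 27 with 2590 and 516. In the other direction, ugt-31, of the UDP-glucuronosyltransferase family, had 22 and 15 intron reads with 74 and 293 exon reads. pgp-10, of the P-glycoprotein transporter family, had 17 and 25 with 433 and 1524. hsp-16.1, a small heat-shock gene with a near-identical copy that makes its counts uncertain, had 6 and 47 intron reads with 534 and 7587 exon reads. In these latter 3 genes exon reads were higher at 25 °C. Of the 36 genes, 17 overlapped another gene.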
